A study of Drosophila melanogaster with 20 samples.

Results

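The genes examined were those of the Drosophila melanogaster respiratory chain and ATP synthase that are encoded in the nucleus. They were chosen by symbol alone: 88 of the 17807 genes in the count table had a symbol that starts with ND-, Sdh, UQCR-, COX or ATPsyn, which stand for complexes I, II, III, IV and V. Complex I had 40 of these genes, complex II 8, complex III 9, complex IV 16 and complex V 15. By symbol, 63 are subunits, 20 are paralogues named after another of the 88 genes with an added L, and 4 carry an L although the gene they are named after has another kind of symbol. The last is Sdhaf3, a factor needed to assemble complex II. The 24 genes with an added L are called L genes here.

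The respiratory chain sits in the inner membrane of mitochondria. Complexes I and II take electrons from NADH and succinate, complex III passes them to cytochrome c, and complex IV hands them to oxygen, while complexes I, III and IV pump protons that drive the ATP synthase, complex V. Most subunits are encoded in the nucleus and imported, and a small set is encoded by mitochondrial DNA, so each of these complexes except complex II is built from the products of both genomes. In Drosophila many subunit genes have a second copy used mainly in the testis, where developing sperm build a large fused mitochondrion, and flight muscle is packed with ordinary mitochondria.

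Messenger RNA was sequenced from whole bodies of male flies aged 2 days, with 10 flies pooled per library, in lines of the Drosophila Genetic Reference Panel (DGRP), inbred from wild-caught females. In each of 10 lines, 1 library came from untreated flies kept at 25 °C and 1 from flies given a heat shock of 30 minutes at 35 ± 1 °C and frozen at once. The submitters classed RAL69, RAL93, RAL359, RAL387 and RAL409 as beneficial and RAL195, RAL304, RAL335, RAL737 and RAL819 as detrimental, after the outcome of preconditioning, in which an earlier mild stress alters the response to a later one. The study set RAL409 aside as an outlier, and the tests below did the same, which left 9 lines (4 beneficial, 5 detrimental) in 18 libraries. Lines within a class are different genotypes, and no line had a second library under the same treatment. In fits without line as a term, p-values therefore measure the spread between lines. In fits that include line, they rest on the difference left between both libraries of a line after a mean heat shock change is removed. Libraries held 18.4 to 33.7 M counts, where M stands for 1e+06, which sets the counting error but not the spread between pools of a line. In whole bodies, fewer cells of a type and less RNA per cell cannot be told apart.

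Of the 88 genes, 85 had enough counts to be tested: 61 subunits (33 of complex I, 4 of II, 5 of III, 8 of IV and 11 of V), 23 L genes and Sdhaf3. The other 3 were listed at 0 in all 20 libraries, and each lies wholly under exons of a second gene in the BDGP6 annotation. ND-MNLL, a complex I subunit at X:7893053-7893798, has 100% of its exonic bases under CG45089 on the same strand, which was also listed at 0. UQCR-14, a complex III subunit at X:16286288-16286988, lies under CG32576 on the opposite strand, which had a mean of 9.79 CPM (normalised counts per M counts). COX5BL, at 2L:6559431-6560133, lies under Trmt6 on the opposite strand, at 5.13 CPM. Among all protein-coding genes, 73 of 118 with at least 90% of their exonic bases under a gene on the opposite strand were at 0. The same held for 308 of 367 with such an overlap on the same strand, and for 8 of 9280 with no overlap. These 3 zeros may therefore not measure the genes. How reads in overlapping genes were counted is not given in the sources used here, so the levels of tested members with partial overlap are less certain too. The largest such overlaps were in COX6AL2 (67.0% on the same strand as Ir75d and 16.1% opposite Prp6), UQCR-6.4 (40.5% opposite POSH), ATPsyndelta (35.6% opposite CG2962), ND-MWFE (15.2% on the same strand as Nrk and 19.8% opposite TppII) and ND-B22 (26.1% opposite CG31855).

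In untreated flies the subunits were abundant, and their levels differed by complex. Levels of different genes were compared per length, as TPM, the share of a gene among counts divided by exonic length, per M. Over the means of the 9 lines, the 61 subunits had a median of 512 TPM. The median was 353 TPM for complex I, 532 for complex II, 965 for complex III, 1012 for complex IV and 1159 for complex V. The most abundant were ATPsynC, which forms the rotating ring of the ATP synthase, at 3294 ± 449 TPM (SD, n = 9 lines), and ATPsynbeta, its catalytic subunit, at 3021 ± 455. In complex I levels ran from 127 ± 29.8 TPM for ND-B8, an accessory subunit, to 1456 ± 169 for ND-MLRQ. The homologue of ND-MLRQ in mammals, NDUFA4, has since been placed in complex IV. In complex II, SdhA, the flavoprotein that oxidises succinate, stood at 510 ± 67.7 TPM and the iron-sulphur subunit SdhB at 659 ± 90.8, so its members lay close together. Complex III ran from 166 ± 30.0 TPM for the small subunit UQCR-11 to 1307 ± 183 for the core protein UQCR-C1. Complex IV ran from 400.4 ± 23.1 TPM for COX7A to 1941 ± 196 for COX7B, and complex V from 222 ± 26.3 for ATPsyndelta, part of the central stalk, to ATPsynC. The place of ATPsyndelta holds per length only, since its annotation has 3817 exonic bases. Over the 20 libraries it had 262003 counts, while ATPsynE, with 720 exonic bases, had 205419.

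The L genes stood far below the genes they are named after. Their median was 59.3 TPM, from 13.6 for ATPsynepsilonL to 286 for COX4L. Both genes were tested in 18 of the 20 pairs, and the L gene's level was 0.824% to 69.2% of its namesake's in untreated flies, with a median of 14.9%. It was below 10% in 6 pairs and below 50% in 17. At the low end stood ATPsynbetaL at 24.1 ± 2.78 TPM, or 0.824 ± 0.213% of ATPsynbeta. ATPsynGL reached 4.97 ± 1.123% of ATPsynG, ATPsynCF6L 5.18 ± 0.711% of ATPsynCF6, and ND-51L1 and ND-51L2 reached 5.20 ± 1.3% and 6.24 ± 1.23% of ND-51, the subunit that binds NADH. UQCR-6.4L stood at 8.03 ± 1.47% of UQCR-6.4.

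In the middle range, the L genes of complex II stood at 10.22 ± 1.37% (SdhAL), 27.9 ± 4.86% (SdhBL) and 17.7 ± 2.35% (SdhCL) of SdhA, SdhB and SdhC. Those of complex I stood at 12.2 ± 3.36% (ND-20L), 15.8 ± 3.30% (ND-24L), 14.1 ± 3.18% (ND-49L) and 39.7 ± 11.8% (ND-B14.5AL). UQCR-11L reached 31.7 ± 6.90% of UQCR-11. Complex IV had the highest shares, with COX4L at 25.7 ± 3.01%, COX7CL at 16.8 ± 3.15%, COX7AL at 40.8 ± 4.24% and COX7AL2 at 69.2 ± 8.49%, so that COX7A and COX7AL2 were the pair nearest to each other in level. The plot of L genes against their namesakes shows all 18 pairs.

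**Figure D1:**
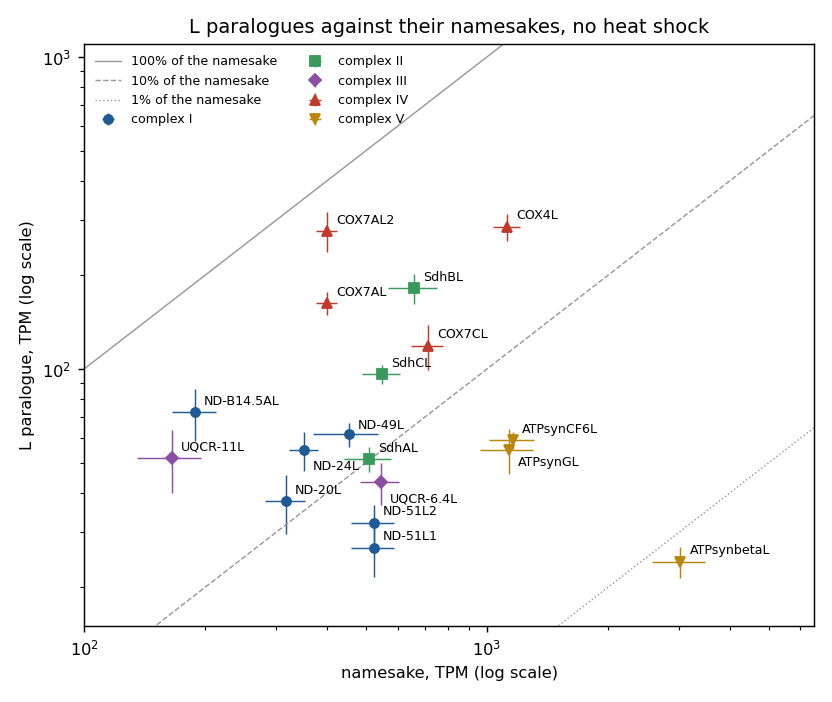
Level of each L gene (vertical axis, TPM, log scale) against that of the gene it is named after (horizontal axis, TPM, log scale) in flies without heat shock. Points are means and bars the SD over 9 lines, colours and shapes mark the complex, and the lines mark 100%, 10% and 1% of the namesake. All 18 pairs lie below the 100% line, from ATPsynbetaL at 0.824% to COX7AL2 at 69.2%.

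Relative to the bulk of genes, heat shock left the transcripts of the respiratory chain close to their level in untreated flies. No member passed the test over the 9 lines (0 of 85 at an adjusted p under 0.05 in edgeR's quasi-likelihood test), while 17.9% of all 14270 genes did, 8.29% higher and 9.61% lower. At an unadjusted p under 0.05 there was also none, against 27.6% of all genes. The median log2 change was −0.04 over the 61 subunits and 0.07 over the 23 L genes, beside 0.0046 over all genes. Of the subunits 44 had a negative estimate and 17 a positive one, while 19 of 23 L genes had a positive one. For 60 of 61 subunits the 95% interval of the change lay within 0.5 log2 units of no change, and over all of them it ran from −0.62 to 0.32 at its widest.

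The complexes differed little. The median log2 change of the subunits was −0.04 in complex I (10 of 33 positive), 0.02 in complex II (3 of 4), −0.0012 in complex III (2 of 5), −0.05 in complex IV (1 of 8) and −0.03 in complex V (1 of 11). SdhAL, the L gene of the succinate-oxidising subunit, had the smallest p, with a change of 0.16 ± 0.08 (SE, adjusted p = 0.221 in edgeR). The most abundant transcripts hardly differed. ATPsynC had 2779 to 4062 CPM with a median of 3598 in untreated and 2819 to 4784 CPM with a median of 3352 in heat-shocked libraries, a log2 change of −0.01 ± 0.10 (SE, n = 9 lines). ATPsynbeta had 3203 to 5019 CPM (median 4132) and 3497 to 5481 CPM (median 3972), a change of 0.01 ± 0.11. In both genes the treatments overlapped almost wholly. SdhA had a log2 change of 0.05 ± 0.09, UQCR-C1 of 0.06 ± 0.10, COX7B of −0.09 ± 0.12 and ND-MLRQ of −0.12 ± 0.12, none past the threshold.

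**Figure D2:**
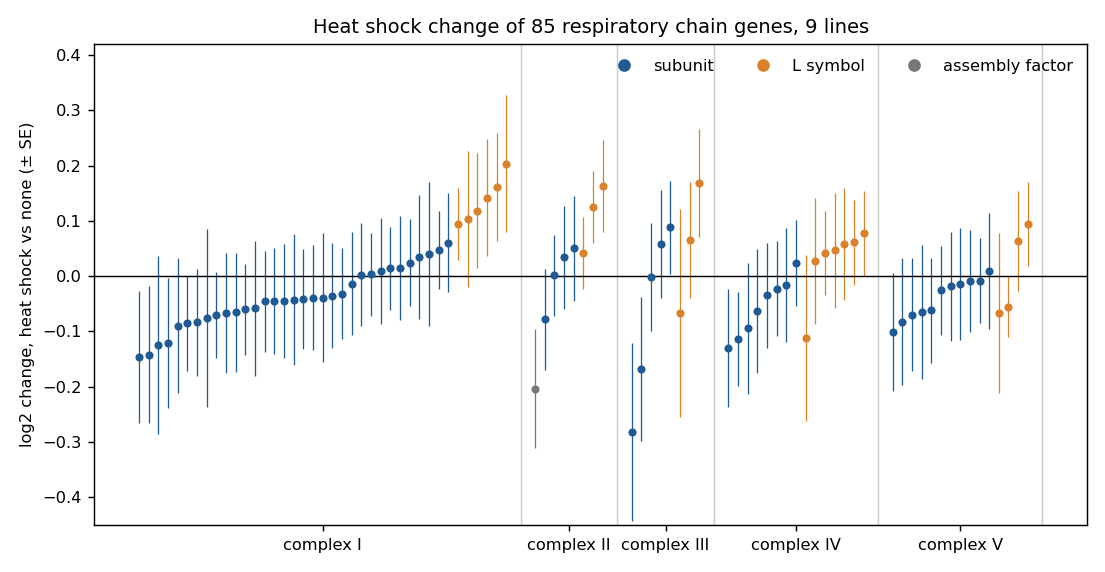
Log2 change under heat shock (vertical axis, heat shock against none, 9 lines) of the 85 tested genes, ordered within each complex by kind and then by value. Points are estimates of edgeR and bars ± SE, with colours for subunits, L genes (L symbol) and the assembly factor. Estimates run from −0.28 to 0.20, and L genes lie mostly above the subunits of the same complex.

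Because both libraries of a line come from the same genotype, the fit with line as a block could detect smaller changes. It called 6 of 85 members, 4 higher and 2 lower, against 35.3% of all genes, 16.3% higher and 18.9% lower (edgeR). Those higher were the L genes ND-24L, ND-51L1, ND-51L2 and SdhAL. Those lower were ND-49, a core subunit of complex I near the quinone site, and UQCR-11. None of these calls stood in the same fit without the block, and their change was at most 0.33 on the log2 scale.

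ND-24L (3L:17319969-17320811), the L gene of a subunit in the NADH-binding module, had 28.7, 22.7, 20.5 and 32.3 CPM in untreated RAL69, RAL93, RAL359 and RAL387, and 26.2, 25.2, 29.8, 26.2 and 24.4 CPM in untreated RAL195, RAL304, RAL335, RAL737 and RAL819. With heat shock, in the same order, it had 32.1, 27.3, 23.4 and 37.0 CPM, and 26.5, 26.9, 32.9, 28.5 and 28.5 CPM. It was thus higher in the heat-shocked library in every one of the 9 lines, although the treatments overlapped because the lines differ. Its log2 change was 0.16 ± 0.10 (adjusted p = 0.327 in edgeR), and 0.16 ± 0.04 with the block (adjusted p = 0.00668).

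UQCR-11 (3L:25120709-25126171) had 184, 191, 144 and 167 CPM in the untreated beneficial lines and 130, 158, 117, 159 and 113 CPM in the detrimental ones, in the order used for ND-24L. With heat shock it had 151, 167, 59.3 and 162 CPM, and 122, 141, 116, 121 and 83.8 CPM. Every line was lower with heat shock, and RAL359 by far the most. The log2 change was −0.28 ± 0.16 (adjusted p = 0.291 in edgeR), and −0.33 ± 0.10 with the block (adjusted p = 0.0262). Without RAL359 the change in the fit without the block was −0.22. ND-24L and UQCR-11 were the only tested members, 1 of 23 L genes and 1 of 61 subunits, that moved the same way in 9 of 9 lines, which 22.1% of all genes did.

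The other 4 calls with the block were smaller or less even over lines. ND-51L1 had 25.6 to 43.7 CPM untreated (median 31.4) and 27.7 to 55.7 with heat shock (median 36.1), highest in RAL359 under both treatments, and its log2 change with the block was 0.20 ± 0.06 (adjusted p = 0.0128 in edgeR). SdhAL (3L:11922610-11924757) had 56.4 to 71.7 CPM untreated and 54.7 to 85.6 with heat shock, and the block gave 0.15 ± 0.05 (adjusted p = 0.0391 in edgeR). ND-51L2 rose by 0.14 ± 0.05 (adjusted p = 0.0451) and ND-49 (4:568296-571554) stood at −0.14 ± 0.05 (adjusted p = 0.0461), both with the block in edgeR. ND-49 had 317 to 533 CPM untreated (median 401) and 304 to 483 with heat shock (median 340). Sdhaf3 had 5.65 to 8.88 CPM untreated and 4.75 to 7.84 with heat shock, a change of −0.20 ± 0.11 that passed in neither fit.

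These values are relative to the TMM scaling, which takes the bulk of genes as unmoved. Scaled by library totals alone, the median change of all genes was −0.19, and that of the subunits −0.24. Under that scaling 36 of 85 members were called lower, against 29.7% of all genes. Within the classes, 3 were in the beneficial lines (12.1% of all genes) and 3 in the detrimental lines (20.7%). ND-24L, ND-51L2 and SdhAL turned to −0.04, −0.05 and −0.03.

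Within each class of lines no member passed either. In the 4 beneficial lines 0 of 85 were called against 7.63% of all genes, and in the 5 detrimental lines 0 of 85 against 9.96% (edgeR). No member had an unadjusted p under 0.05 in either class, against 17.1% and 19.6% of all genes. The subunit median was −0.09 in the beneficial lines, with 56 of 61 estimates negative, and 0.02 in the detrimental lines, with 42 of 61 positive. With line as a block 1 member was called in the beneficial lines, ND-24L at 0.20 ± 0.06 (adjusted p = 0.0283 in edgeR; 19.4% of all genes), and none in the detrimental lines (22.9%).

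Behind the small mean lay lines in which nearly all subunits shifted together, in different directions. The median change of the 61 subunits in the beneficial lines was −0.07 in RAL69, −0.02 in RAL93, −0.53 in RAL359 and 0.16 in RAL387. In the detrimental lines it was 0.03 in RAL195, 0.21 in RAL304, 0.15 in RAL335, −0.15 in RAL737 and −0.12 in RAL819. The SD over the 9 lines was 0.22, several times the size of the mean of −0.04. In 7 lines the shift was close to uniform in sign. Of 61 subunits 52 were lower with heat shock in RAL69, 59 in RAL359, 56 in RAL737 and 58 in RAL819, and 58 were higher in RAL387, 56 in RAL304 and 58 in RAL335. Beside these, the median change of all 14270 genes in a line lay between −0.022 (RAL304) and 0.015 (RAL387). The plot of changes by line shows each gene. With 1 pair of libraries per line, a shift of a single line has no replicate.

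**Figure D3:**
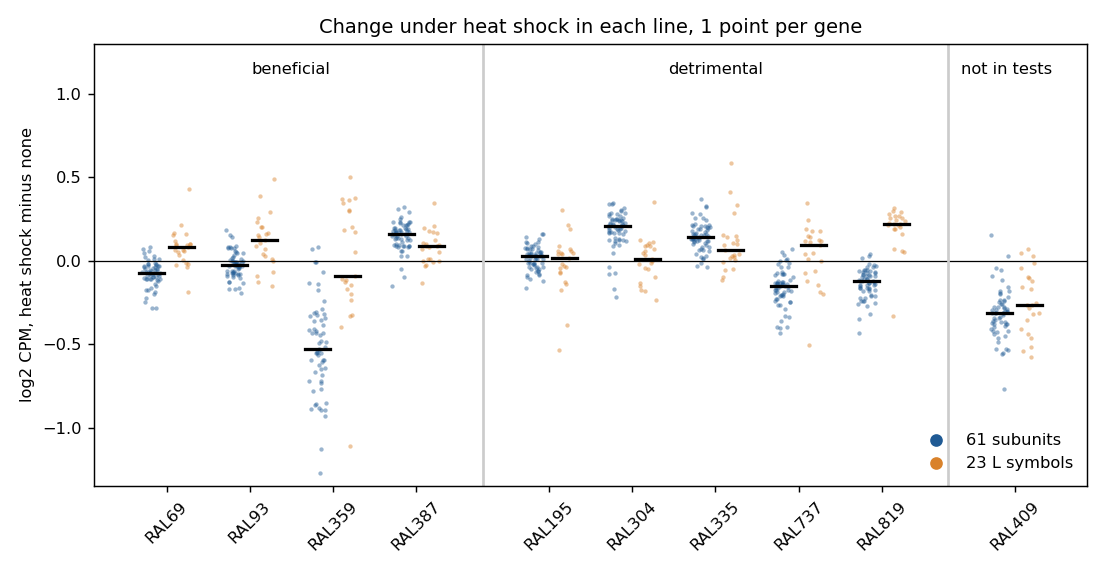
Log2 change of CPM with heat shock (vertical axis) in each line, with 1 point for each of 61 subunits and 23 L genes (L symbols) and a bar at their median. Vertical lines part the beneficial lines, the detrimental lines and RAL409. The subunits of RAL359 lie lowest, with a median of −0.53, and those of RAL304 highest, with 0.21.

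RAL359 stood apart. Its change was the lowest of the 9 lines for 56 of 61 subunits, whereas it was the lowest for 19.6% of all genes. In this line 59 of 61 subunits were lower with heat shock, against 51.5% of all genes. By complex the median was −0.53 for I, −0.22 for II, −0.61 for III, −0.62 for IV and −0.43 for V. The summed subunit level went from 29039 to 22612 CPM in RAL359, while over the 9 lines it was 28788 ± 3042 CPM (SD) without and 28605 ± 4079 with heat shock. The subunits with the lowest change in RAL359 were UQCR-11 at −1.27, UQCR-6.4 at −1.13, ND-AGGG at −0.93, ND-B8 at −0.90, COX7C at −0.89 and COX7B at −0.89. COX7B, for one, had 473 CPM without and 255 with heat shock in that line. The 4 subunits with the highest change there hardly differed: SdhA had 810 and 857 CPM (log2 change 0.08), ND-75, the large iron-sulphur subunit of complex I, 706 and 741 (0.07), UQCR-C1 1146 and 1142 (−0.0052), and UQCR-C2, the other core protein, 928 and 923 (−0.0083).

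The change in RAL359 went partly with transcript length, with exceptions. Across the 61 subunits, Spearman's correlation of its change with exonic length was 0.706, a description across genes of the same pair of libraries. UQCR-11, the lowest, has 1613 exonic bases, about as many as UQCR-C1 with 1632. ATPsyndelta, the longest subunit with 3817 exonic bases, had 468 CPM without and 320 with heat shock in RAL359 (log2 change −0.55). ATPsynbeta, with 2386, stood at −0.24, and ATPsynC, with 1868, at −0.31. The correlation was 0.554 in RAL409, 0.546 in RAL737, 0.529 in RAL819, 0.400 in RAL195, 0.342 in RAL304 and 0.212 in RAL387, and −0.232 in RAL69, −0.263 in RAL335 and −0.275 in RAL93. The heat-shocked library of RAL359 also had the steepest rise of level with length over all genes. It was 0.124 log2 units per doubling of exonic length, relative to the mean of all 20 libraries. The other libraries of the 9 lines lay between −0.070 and 0.087. The members are short, with a median exonic length of 843 bases against 1657 for all genes tested. With each library's length trend removed, the subunit median of RAL359 was −0.41 in place of −0.53, with 58 of 61 lower and RAL359 lowest of 9 lines for 55 (19.2% of all genes). A length trend can come from RNA or library quality, whose part in this result was not tested.

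RAL304 lay at the other end. Its change was the highest of the 9 lines for 32 of 61 subunits and for 10.8% of all genes, and 56 of 61 subunits were higher with heat shock, against 46.2% of all genes. The median was 0.19 in complex I, 0.19 in II, 0.26 in III, 0.20 in IV and 0.21 in V. ATPsynC went from 4031 to 4784 CPM in this line and UQCR-C1 from 1333 to 1684. In RAL359 and RAL304 alike, the 5 complexes thus lay on the same side of 0. The plot of complex levels by line shows the medians in all lines.

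**Figure D4:**
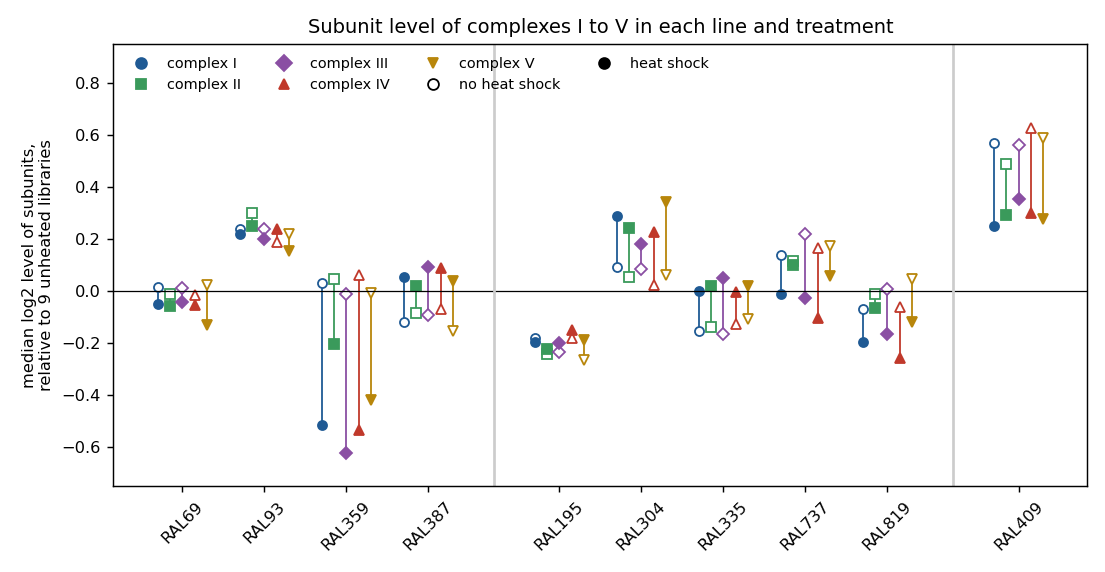
Median log2 level of the subunits of complexes I to V (vertical axis, relative to the mean of the 9 untreated libraries) in each line, open without and filled with heat shock, joined by a line. Grey lines part the beneficial lines, the detrimental lines and RAL409. The complexes of a line lie near each other and shift mostly together, down in RAL359 and up in RAL304, and RAL409 lies above every other line without heat shock.

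The L genes did not share the pattern of the subunits in every line. Their median change was 0.08 in RAL69, 0.13 in RAL93, −0.09 in RAL359, 0.09 in RAL387, 0.02 in RAL195, 0.01 in RAL304, 0.07 in RAL335, 0.10 in RAL737 and 0.22 in RAL819. In RAL69, RAL93, RAL737 and RAL819 it was thus positive where the subunit median was negative. RAL359 was the lowest line for 7 of 23 L genes, and COX7AL2 (2L:2192525-2197912) was the extreme there, with 156 CPM without and 72.1 with heat shock (log2 change −1.11). With the length trend removed, the L median of RAL359 was 0.11. Relative to its namesake, the L gene stood higher in heat-shocked than in untreated RAL359 in every pair except COX7AL2. UQCR-11L went from 34.8% to 63.4% of UQCR-11, and ND-20L from 10.6% to 17.4% of ND-20. COX7AL2 went from 69.4% to 48.5% of COX7A.

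Whether the classes respond differently was tested as the difference between their heat shock changes. No member passed (0 of 85, with 0% of all genes called and 0.294%, or 42 genes, at an unadjusted p under 0.05, of which no member). All 61 subunit estimates were negative, meaning lower changes in the beneficial lines, with a median of −0.12 and a range from −0.21 to −0.05, whereas 6857 of all 14270 genes had a negative estimate. Of the L genes 12 of 23 were positive, with a median of 0.0020. The estimates share the same 18 libraries, and those of RAL359 carried most of the difference. Without RAL359 the subunit median was −0.02, with 37 of 61 negative. The mean of the line medians was −0.12 ± 0.294 (SD, n = 4) in the beneficial and 0.02 ± 0.159 (n = 5) in the detrimental lines, so the classes overlapped widely. The 95% intervals of the subunits ran from −0.86 to 0.56, and 25 of 61 lay within 0.5 log2 units of no difference. With line as a block they ran from −0.68 to 0.35, and 44 of 61 lay within that window.

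SdhC, a membrane anchor of complex II, had the most negative estimate of the subunits, −0.21 ± 0.18. ND-B17.2 (2L:2579201-2580172), an accessory subunit of complex I, had −0.18 ± 0.17. Its change was −0.04, −0.07, −0.73 and 0.03 in RAL69, RAL93, RAL359 and RAL387, and 0.01, 0.18, 0.07, −0.07 and −0.17 in RAL195, RAL304, RAL335, RAL737 and RAL819. Without its value in RAL359 the beneficial lines lay within the range of the detrimental ones. ATPsynbetaL had the smallest p and a positive estimate, 0.22 ± 0.15 (adjusted p = 1.00 in edgeR). It had 28.2, 25.1, 28.7 and 29.4 CPM in the untreated beneficial lines and 32.9, 26.8, 37.1 and 31.7 with heat shock. The detrimental lines had 34.9, 27.1, 26.5, 24.9 and 25.8 CPM, and 26.6, 28.3, 26.9, 25.7 and 30.2.

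The study itself compared the classes within each treatment. Without heat shock no member differed between beneficial and detrimental lines (0 of 85, with 0% of all 13770 genes called in edgeR), and 2 members had an unadjusted p under 0.05, against 4.18% of all genes. The median log2 ratio of beneficial to detrimental lines was 0.06 over the subunits, with 52 of 61 positive, and 0.07 over the L genes. The subunit median was 0.06 in complex I, 0.10 in II, 0.03 in III, 0.06 in IV and 0.03 in V. It rested on RAL93, the untreated line of the 9 with the highest subunit level, since without that line it was 0.00098 with 30 of 61 negative. UQCR-11, whose values in each line are given with its heat shock change, had a log2 ratio of 0.34 ± 0.13 (adjusted p = 0.999 in edgeR). Only RAL304 and RAL737 of the detrimental lines reached the range of the beneficial ones.

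ND-B17.2 had 245, 279, 255 and 242 CPM in untreated RAL69, RAL93, RAL359 and RAL387, and 206, 231, 218, 241 and 241 CPM in RAL195, RAL304, RAL335, RAL737 and RAL819. It was the only subunit of 61 for which every beneficial line lay above every detrimental line, by a narrow margin, which 0.687% of all genes did. Its log2 ratio was 0.17 ± 0.07 (adjusted p = 0.999 in edgeR). COX5B (2L:6557800-6559308), a zinc-binding subunit of complex IV, had the third smallest p, with a ratio of 0.22 ± 0.11 and 345 to 464 CPM in beneficial against 303 to 386 CPM in detrimental lines. The authors' deposited table for untreated flies held p-values for the 85 members, with a smallest adjusted p of 0.819, a median log2 ratio of 0.06 and 68 positive values.

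With heat shock no member differed either (0 of 85, 0% of all 13877 genes called in edgeR), and none had an unadjusted p under 0.05, against 4.4% of all genes. The subunit median was −0.05, with 15 of 61 positive, and the L median 0.07, with 19 of 23 positive. It was −0.04 in complex I, −0.03 in II, −0.03 in III, −0.03 in IV and −0.10 in V. The sign of the subunit median rested on RAL359, without which it was 0.07 with 14 of 61 negative. Without RAL93 it stayed negative, at −0.15. The smallest p-values belonged to L genes. ATPsynGL had 22.2, 18.7, 16.9 and 20.8 CPM in heat-shocked beneficial and 17.8, 13.7, 17.9, 16.7 and 16.4 CPM in detrimental lines, so RAL359 lay within the detrimental range, and its log2 ratio was 0.25 ± 0.12. ATPsynbetaL had a ratio of 0.22 ± 0.11 and ND-51L1 one of 0.26 ± 0.16 (adjusted p = 0.999 for each of the 3 in edgeR). The authors' deposited table for heat-shocked flies gave a smallest adjusted p of 0.999 over the 85 members and a median log2 ratio of −0.03.

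Differences between lines passed the test for many members, though for a smaller share than of all genes. Fits without the block used the spread between lines as error, so their counts for treatments and classes are not comparable. Set against the difference that remained between both libraries of a line, 40 of 85 members (47.1%) differed between the 9 lines, beside 63.6% of all genes (edgeR, adjusted p under 0.05). They were 24 of 61 subunits and 16 of 23 L genes. By complex, L genes included, they were 21 of 39 in complex I, 3 of 8 in II, 5 of 8 in III, 5 of 15 in IV and 6 of 15 in V. The count depended on single lines, since it was 69 without RAL359, whose own libraries correlated least with each other, and 26 without RAL195. Leaving out a line changes the error term of every gene. Shares of all genes at these settings are not given here, so the swing cannot be called particular to the members. Between the highest and the lowest line, both libraries averaged, the log2 range had a median of 0.54 over the subunits, 0.54 over the L genes and 0.63 over all genes.

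Of the 6 members with the smallest p, 5 were L genes. ND-24L had the smallest p, with 20.5 CPM in untreated RAL359 and 32.3 in RAL387, the lowest and highest lines under both treatments (log2 range 0.64, adjusted p = 0.000502 in edgeR). ND-51L1 was highest in RAL359, at 43.7 and 55.7 CPM, and RAL335, at 42.1 and 41.9, and lowest in RAL737, at 25.6 and 27.7 (range 0.88, adjusted p = 0.000619). UQCR-11L had 7.34 CPM in untreated and 4.92 in heat-shocked RAL195, and 9.29 to 16.8 CPM in the other 8 untreated lines (range 1.31, adjusted p = 0.000852). Without RAL195 its adjusted p was 0.0444, so that line carried most of the difference.

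ND-49, the subunit among them, was highest in RAL93, at 533 and 473 CPM, and RAL304, at 509 and 483, and lowest in RAL195, at 317 and 304 (range 0.69, adjusted p = 0.000873 in edgeR). COX6AL, averaged over both libraries, was highest in RAL69, at 45.6 and 50.8 CPM, and lowest in RAL359, at 35.7 and 33.0 (range 0.48, adjusted p = 0.00123). ND-20L (3R:29515717-29516527), whose namesake carries an iron-sulphur cluster of complex I, had 10.8 CPM in untreated RAL93 and 22.4 in RAL69, again the extremes under both treatments (range 0.83, adjusted p = 0.00129). The subunits shared their extremes. Averaged over both libraries, 36 of 61 were highest in RAL93 and 22 in RAL304, while 33 were lowest in RAL359 and 20 in RAL195. The L genes were spread over more lines, with 12 of 23 highest in RAL69.

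RAL409, left out of the tests, had the highest subunit levels of the untreated lines. Its untreated library held 41835 CPM over the 61 subunits, against 24092 (RAL195) to 33768 (RAL93) in the other 9. It was the highest of 10 lines for 57 of 61 subunits, which it was for 20.3% of all genes: 30 of 33 in complex I, 3 of 4 in II, 5 of 5 in III, 8 of 8 in IV and 11 of 11 in V. The median subunit level was 0.57 log2 units above the mean of the 9 lines, and ATPsynC stood at 5272 CPM. Of the L genes 6 of 23 were highest there, with a median of 0.21. With heat shock 59 of 61 subunits were lower in RAL409, against 57.1% of all genes, with a median change of −0.31, and 23 of 61 were the highest of 10 lines (12.3% of all genes). The L genes were lower there too, 20 of 23, with a median change of −0.26. RAL409 had the lowest change of 10 lines for 15 of 23 L genes and 4 of 61 subunits (17.6% of all genes). The untreated RAL409 library had the steepest length trend of the 20, −0.165 per doubling, and with trends removed the subunit level was 0.51 above the mean and the highest of 10 lines for 60 of 61 (27.1% of all genes).

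Other genes of the pathway gave context, on lists chosen with earlier results known. Subunits with other symbols, among them blw, the alpha subunit of ATP synthase, and RFeSP, the iron-sulphur subunit of complex III, had 0 of 10 called in edgeR, with a median change of −0.01, and both genes for cytochrome c did not pass. The 13 subunits encoded by mitochondrial DNA had 0 called and a median of −0.17, with 11 negative, and varied much more between lines than the nuclear ones, with a median log2 range of 1.53. Their median change was −0.31, −0.01, −0.52 and 0.34 in RAL69, RAL93, RAL359 and RAL387, and 0.12, −0.66, −0.33, 0.65 and −0.53 in RAL195, RAL304, RAL335, RAL737 and RAL819. In RAL304, RAL335 and RAL737 they thus lay on the other side of 0 from the nuclear subunits, as the plot of nuclear and mitochondrial subunits shows.

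**Figure D5:**
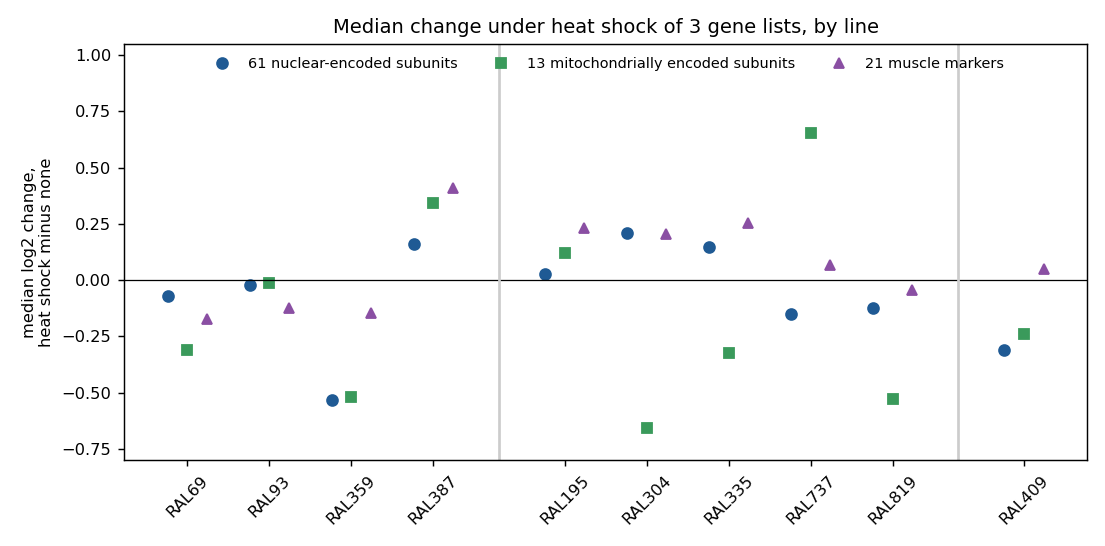
Median log2 change with heat shock (vertical axis) in each line of the 61 nuclear-encoded subunits, the 13 mitochondrially encoded subunits and 21 muscle markers. Vertical lines part the beneficial lines, the detrimental lines and RAL409. Nuclear and mitochondrial subunits lie on opposite sides of 0 in RAL304, RAL335 and RAL737, and muscle markers share the sign of the nuclear subunits in 8 of the 9 tested lines.

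Mitochondrial genes on these lists that passed without the block all lay outside the chain. Over all genes 8.29% were called higher and 9.61% lower in that fit. Of 11 genes for protein quality control in mitochondria 3 rose: the chaperones Hsp60A, by 0.85 ± 0.05 (SE), and Hsc70-5, by 0.84 ± 0.05, and the protease partner ClpX, by 0.28 ± 0.05 (adjusted p = 2.21e-09, 1.19e-09 and 0.00146 in edgeR). Of 19 genes for the citric acid cycle and pyruvate oxidation only Pdk rose, by 1.94 ± 0.11 (adjusted p = 7.06e-10). It encodes the kinase that switches off pyruvate dehydrogenase, the step that feeds the cycle. Of 8 tested assembly factors Bcs1, which in yeast inserts the iron-sulphur protein into complex III, rose by 0.35 ± 0.09 (adjusted p = 0.00981), and of 8 carriers and porin Bmcp fell by 0.30 (adjusted p = 0.00422). Of 14 tested regulators of mitochondrial genes 1 rose and 5 fell, among them Myc, at 0.64 ± 0.12, srl, the fly homologue of PGC-1, at −0.46 ± 0.10, Dref at −0.33 ± 0.08 and mtDNA-helicase at −0.60 ± 0.17 (adjusted p = 0.00116, 0.00324, 0.00588 and 0.0190). With the block 8 of 14 regulators and 2 of 8 assembly factors, Nubpl and Ttc19, were called lower, beside 18.9% of all genes. The carrier Ant2 and the dehydrogenase Mdh1 were called higher, beside 16.3% of all genes.

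Markers of tissues rich in mitochondria were measured beside these values. Of 35 testis markers 0 were called in edgeR over the 9 lines, with a median of 0.06 and 30 positive, and with line as a block 7 were called higher, beside 16.3% of all genes. Their summed level ran from 12114 to 14765 CPM without and from 11800 to 15774 with heat shock. Of 21 muscle markers 0 were called, with a median of 0.07, and with the block 1 was, beside 35.3% of all genes. Their summed level ran from 29405 to 47125 CPM without and from 32531 to 54351 CPM with heat shock. Their median change was −0.17, −0.12, −0.14 and 0.41 in RAL69, RAL93, RAL359 and RAL387, and 0.23, 0.21, 0.25, 0.07 and −0.04 in RAL195, RAL304, RAL335, RAL737 and RAL819. Muscle markers were lower or higher together with the subunits in every line except RAL737, and 20 of 21 had a negative difference between the responses of the classes, with a median of −0.18. All of these matched markers had enough counts to be tested, so none was at 0, and the part of muscle or testis RNA in the subunit changes was not tested.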

How the data were processed

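The authors deposited raw counts per FlyBase gene for 20 libraries, and tables of their class comparisons without RAL409 whose log2 ratios, standard errors and p-value columns are described per the file headers. A score column, the ratio over its error, was deposited beside them and not used. The submitters' processing notes name BDGP6, Bowtie2 2.2.9, SAMtools 1.12 and DESeq2 1.28.1. The kit was stranded and selected messenger RNA, per the labels' protocols, and the counting step is not given in the sources used here. Symbols, positions and exonic lengths came from the BDGP6 annotation of Ensembl release 115 (17710 identifiers matched, 97 did not). Gene levels across lengths are TPM computed from the deposited counts.

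Tests used edgeR 4.0.16 in R 4.3.3 on all genes kept by filterByExpr, with TMM scaling, quasi-likelihood F tests and Benjamini-Hochberg adjustment over all genes, at 0.05. Heat shock was tested in 18 libraries with 1 coefficient per class and treatment, classes in 9 libraries per treatment, and lines with treatment as a term. CPM are counts per 1e+06 of the TMM-scaled total, and changes per line are differences of log2(CPM + 0.5). The procedure was tested on counts simulated without a spread between lines. For a log2 change of 0.585 in a single line, the test of line differences recovered 34.3% of the changed genes. Recovery in the fits without line does not carry over to the real data, which hold that spread.

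Both libraries of a line pair by genotype: their deviations from the group means correlated at 0.547 to 0.800 in 9 of 9 lines, against at most 0.118 with other lines. The study states no block, so the fit with line as a block stands beside the results it changed.

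Members and lists were chosen with earlier results of these data known. All members may be named. The naming rule gave full values to the 2 called members with the smallest p per complex and direction under heat shock (none without the block), the 6 smallest p between lines, the 3 smallest in each class comparison, the extremes by level in each complex, each L gene with its namesake, and up to 4 called genes of each other list. Members called with the block, and those singled out in RAL359 and RAL304, were chosen after their values were seen. Alternatives were other scalings, no filter, DESeq2 1.42.0, limma-voom (limma 3.58.1), robust dispersions, length offsets, RAL409 included, line as a block and each line left out.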

Additional observations from a re-analysis of the deposited data

Results flagged for a closer look

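The subunits of RAL409 without heat shock stood at a median of 0.57 log2 units above the mean of the 9 tested lines, above each of them (the highest, RAL93, was at 0.24). This line is in no test, and its value comes from 1 library. The L genes of the same library stood at 0.21, above the 0.18 of RAL69, the highest tested line.

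Among 68 checks for a value far from the rest of its class, 1 stood out. The change of ND-B17.2 with heat shock in RAL359 was −0.73, while the other 3 beneficial lines lay between −0.07 and 0.03. Chance alone marks about 1 in 20 groups.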

How the results depend on the processing

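With line as a block (the pairing of both libraries of a line), 4 members were called higher and 2 lower over all lines, and 1 higher in the beneficial lines. With the block and length offsets together these were 6 higher, 3 lower and 2 higher. Scaling by library totals, which moved the median of all genes by −0.19, called 36 members lower over all lines, 3 in the beneficial and 3 in the detrimental lines (29.7%, 12.1% and 20.7% of all genes), and gave a subunit median of −0.21 in the detrimental lines. It turned SdhAL to −0.030, ND-24L to −0.040 and ND-51L2 to −0.052. The cause was not tested. Differences between lines were called for 65 members with RAL409 included and 20 without the treatment term, and for 26 to 69 when 1 line was left out, beside 40 (24 among the subunits alone). The fit with 40 called 63.6% of all genes, and the shares at the other settings are not given here. Leaving out 1 line kept the count of members called for heat shock and between classes at 0, while the subunit median ran from −0.08 to −0.0014 over all lines and from −0.15 to 0.07 between classes with heat shock. The block changed the call of no other member, while within classes it added calls in the other lists, among them Bmcp, Bcs1 and Dref in the beneficial lines. Library totals set the counting error only, and with 1 pool per line and treatment the spread between pools of a line is unknown.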
